A study of Mus musculus with 4 samples.

Results

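Parp12, Parp9, Parp14 and Dtx3l, 4 of the 21887 protein-coding genes on mouse chromosomes 1 to 19, X and Y, were examined for binding of IRF2, an interferon regulatory factor, in stem cells of the small intestine. They are interferon-inducible ADP-ribosyltransferase genes and the gene of the Parp9 partner protein, and they were chosen on these peak lists, with the positions and scores of the peaks at Parp12 and at Dtx3l and Parp9 already known. The presence and score of those peaks are therefore described and not tested. Chromatin of intestinal stem cells from Lgr5-EGFP-Ires-CreERT2 mice was immunoprecipitated with an anti-IRF2 antibody and sequenced (ChIP-seq). All samples carry this allele, which places a green fluorescent protein and an inducible Cre recombinase under the promoter of the stem cell gene Lgr5. The series holds 2 IRF2 libraries, here replicate 1 (the library that its title calls Takara) and replicate 2 (the one that its title calls Tokyo), and 2 input controls, which were not analysed here. The series text names 5 mice without tying them to samples, so the spread between the libraries may be technical. The sources used here give neither age nor treatment of the mice. Peak positions carry no expression values, so marker genes could not be used to check the labelled cell type.

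ADP-ribosyltransferases, often called PARPs, transfer ADP-ribose from NAD+ to proteins or nucleic acids. Several of them are induced by interferon and act in antiviral defence. Interferon regulatory factors bind DNA through repeats of the letters GAAA, as found in the interferon-stimulated response element. IRF2 competes with IRF1 for such sites and is best known as a repressor of interferon-responsive genes, although it activates some of them. Parp12 is a mono-ADP-ribosyltransferase with zinc fingers. Parp9 and Parp14 carry macrodomains, which bind ADP-ribose. Dtx3l is a ubiquitin ligase that forms a complex with Parp9 and is transcribed from a promoter shared with it.

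Parp12 lies on chromosome 6 (39086412 to 39118349, minus strand, mm10), so its high-coordinate end is its start. The long non-coding RNA gene 4930599N23Rik begins 123 bp beyond that start and runs the other way (39118473 to 39148312). The other 3 genes lie together on chromosome 16, Parp14 at 35831892 to 35871518, Dtx3l at 35926515 to 35939027 on the minus strand and Parp9 at 35938470 to 35972621. The records of Dtx3l and Parp9 overlap by 558 bp at the start of Dtx3l. RefSeq promoter sequences for GRCm38.p6, the assembly that UCSC calls mm10, run from 250 bases before a gene start to 50 after it. They matched Parp12 and Dtx3l, and no entry was used for Parp9 and Parp14. The window at Dtx3l (chr16:35938978-35939277, minus strand) lay whole inside the IRF2 peak of replicate 1 and is shown because its last base lies 2 bp from the peak summit. Capitals mark the only match to the IRF motif with at most 1 mismatch. The motif searched, on both strands, is GAAA, then any 2 letters, then GAAA, and a mismatch may fall on any of its 8 fixed letters.
Dtx3l: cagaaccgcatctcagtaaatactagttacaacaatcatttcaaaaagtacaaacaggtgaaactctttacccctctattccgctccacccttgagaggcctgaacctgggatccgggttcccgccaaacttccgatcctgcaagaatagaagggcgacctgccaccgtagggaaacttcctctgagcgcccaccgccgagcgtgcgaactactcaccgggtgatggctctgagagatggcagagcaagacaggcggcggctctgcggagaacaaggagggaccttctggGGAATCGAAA
The window at Parp12 (chr6:39118300-39118599, minus strand) is shown because the highest gene-end peak of both lists reaches into it. Capitals mark its CpG dinucleotides.
Parp12: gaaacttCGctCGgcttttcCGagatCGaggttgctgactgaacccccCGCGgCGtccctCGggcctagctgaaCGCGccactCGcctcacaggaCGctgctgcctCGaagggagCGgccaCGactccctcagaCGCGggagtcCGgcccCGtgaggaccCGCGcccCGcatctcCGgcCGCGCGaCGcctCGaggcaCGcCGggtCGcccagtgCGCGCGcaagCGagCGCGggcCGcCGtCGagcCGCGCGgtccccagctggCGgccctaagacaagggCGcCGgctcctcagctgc
The base composition of these windows differed. The Parp12 window held 46 CpG dinucleotides and a GC content of 73.7%, more than in 98.4% and 94.9% of the 32851 windows of the table. The Dtx3l window held 17 CpG dinucleotides and a GC content of 54.3%, against medians of 7 and 52.7% over the table.

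Parp12 had the third-highest peak of each library. In replicate 1 the peak spanned 39117999 to 39118531 (533 bp), with a summit score of 131, rank 3 of 380 peaks. In replicate 2 it spanned 39117621 to 39118821 (1201 bp), with a summit score of 48, rank 3 of 238 peaks. The summit score is a whole number that the authors gave each peak, in a unit that the files do not state, and it is read only within its own list. Scores ran from 13 to 169 in replicate 1 (median 22.5) and from 10 to 80 in replicate 2 (median 14). Both lists thus placed the Parp12 peak near the top by rank, as the plot of scores by rank shows. By score it stood below the highest value of each list, 131 against 169 and 48 against 80. The peaks just above and below it in rank lay farther from genes, 24.1 kb from Map4 (138) and 6.81 kb from Mlxip (121) in replicate 1, and 12.5 kb from Tmem267 (56) and 19.02 kb from Bmp8b (42) in replicate 2. Among gene-end peaks, those whose midpoint is at most 1000 bp from an end of a protein-coding gene, the Parp12 peak was the highest of 88 in replicate 1 and of 104 in replicate 2. Its width ranked 186 of 380 in replicate 1 and 6 of 238 in replicate 2.

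**Figure D1:**
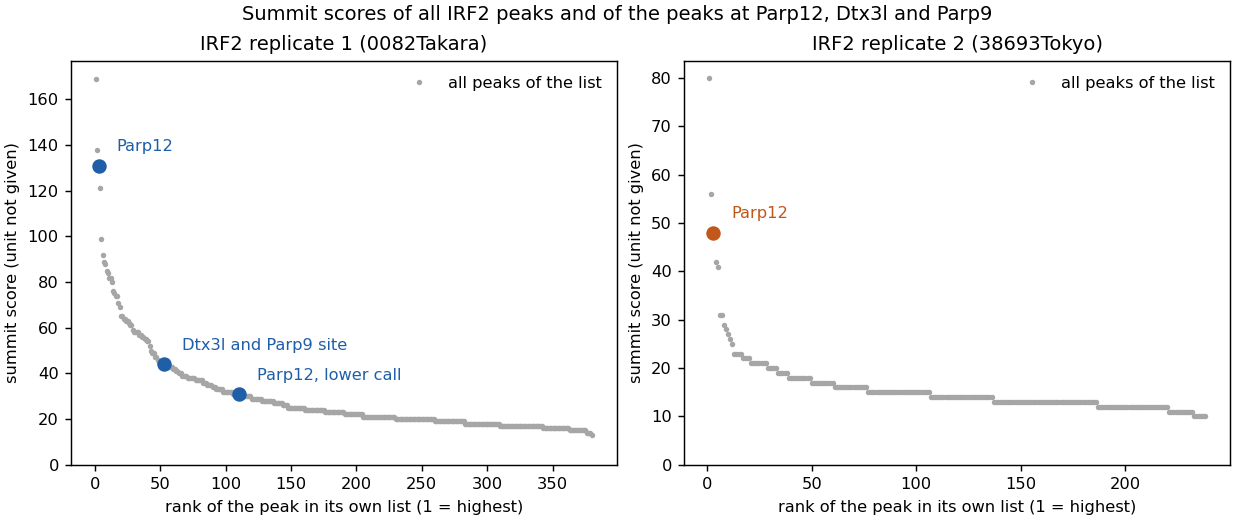
Summit score of every IRF2 peak (y axis, unit not given) against its rank in its own list (x axis), with replicate 1 on the left and replicate 2 on the right. Coloured points are the peaks at Parp12 (131 and 48, rank 3 in each list), the lower replicate 1 call at Parp12 (31) and the site of Dtx3l and Parp9 (44), which has a point in replicate 1 only.

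Within the Parp12 gene the calls of the libraries had the same summit. The midpoint lay 84.5 bp inside the gene start in replicate 1 and 128.5 bp inside it in replicate 2. Both summits stood at position 39118176, 173 bp inside the gene, an offset of 0 bp. Summits were reported on a grid of 16 bp for 371 of 380 and 226 of 238 peaks, which limits how finely positions can be read. Of the 53 regions where peaks of both lists overlapped by at least 1 bp, 4 had the same summit in both lists, and the other 3 lay 6256 bp or more from a protein-coding gene end. The median offset over the 53 regions was 80 bp and the largest 678 bp. Among the 19 such regions within 1000 bp of a gene end, offsets ran from 16 to 144 bp apart from that at Parp12.

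**Figure D2:**
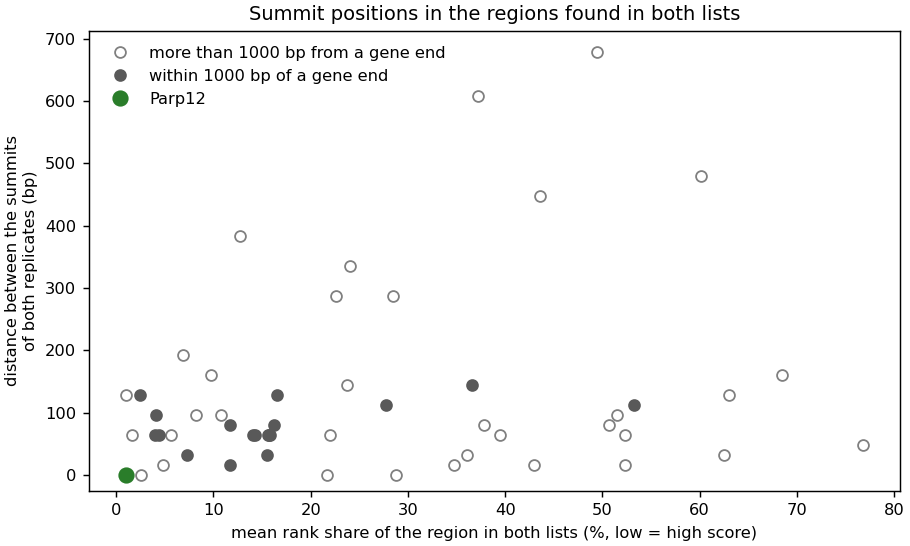
Distance between the replicate 1 and replicate 2 summits (y axis, bp) against the mean rank share of the region (x axis, percent, low values for high scores) for the 53 regions found in both lists. The Parp12 region sits at an offset of 0 bp and a mean rank share of 1.02%, and filled points are regions within 1000 bp of a gene end.

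Replicate 1 held a further call inside Parp12, at 39117412 to 39117974, with a summit score of 31, tied at ranks 106 to 111. It was separated from the higher call by 24 bp, and the summits were 416 bp apart. Replicate 2 had 1 call over the same stretch, which covered 100% of the higher replicate 1 call and 62.9% of the lower one. The higher replicate 1 call covered 44.4% of the replicate 2 call. Calls as close as 100 bp formed 15 adjacent pairs in replicate 1 and 2 in replicate 2, so such close calls occurred at sites other than Parp12 too. Whether the calls of a pair mark the same site was not tested. Of the 53 regions found in both lists, 2 held more than 1 replicate 1 call, those at Parp12 and near Bmp8b.

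The letters of an IRF site were present beside the Parp12 summit, outside the Parp12 promoter window. That window held no match to the IRF motif on either strand, also with 1 mismatch allowed. The window of 4930599N23Rik (chr6:39118223-39118522, plus strand) overlaps it by 223 bp and reaches nearer to the summit. Its first 30 bases (chr6:39118223-39118252) are shown because they hold an exact match directly preceded by an overlapping match with 1 mismatch, both in capitals.
4930599N23Rik: gctggaaGGAAACGAAACCGAAAgcgggct
The exact match (39118236 to 39118245) lay 104 to 113 bp inside Parp12 and 60 bp from the summit of both libraries. It falls inside the IRF2 peaks of both. An exact match was present in 3.44% of all 32851 windows. Among the 73 windows that overlapped a replicate 1 peak it was present in 23 (31.5%, 95% Wilson interval 22.0 to 42.9, counting error only), and the window of 4930599N23Rik is one of them. Over those 23 windows the match lay between 2 and 556 bp from the summit of replicate 1, with a median of 74 bp. The window of 4930599N23Rik begins 47 bp from the summit, so the bases under the Parp12 summit were not read and a nearer match there would not be seen. The own promoter windows of 5 other genes were also searched, those whose gene-end regions found in both lists were nearest in mean rank to that of Parp12. An exact match was found in the windows of 2 of the 5. Parp12 had none in its own window, so this count is not on the same footing as the match in the 4930599N23Rik window. The matches are given on the strand that reads GAAA, in capitals, with that beside Parp12 first.
4930599N23Rik, beside Parp12: ggaaggaaacGAAACCGAAAgcgggctccg
Rbck1: ccccggaagaGAAAGTGAAAgtggcagtcc
Erap1: gcccgggaccGAAAGTGAAAgtgaaggtgg
Rbck1 encodes a component of the complex that builds linear ubiquitin chains, and Erap1 a peptidase that trims antigenic peptides. Their matches lay 21 and 14 bp from the replicate 1 summit and 98 and 78 bp from the replicate 2 summit, so they were nearer to the summit than the match at Parp12 in replicate 1 and farther from it in replicate 2. They stand at chr2:152332437-152332446 and chr13:74639849-74639858. The other 3 genes of this set, Tapbp, Nmi and Nub1, had no exact match in their windows, of which that of Nub1 overlapped no peak. The windows of Tapbp and Nmi overlapped the peaks but did not reach the summit of either library. The bases under the summits at these 3 genes were therefore not read, and a match there would not be seen. The mean rank share of the region, over both lists, was 1.02% at Parp12, 2.42% at Rbck1, 4.03% at Erap1, 4.05% at Tapbp, 4.36% at Nmi and 7.32% at Nub1. A match is a description of the letters and does not show binding to them.

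Dtx3l and Parp9 shared a single peak, which covered the overlap of both genes. In replicate 1 it spanned 35938278 to 35939358 (1081 bp), with a summit score of 44, tied at ranks 52 to 55 of 380. It extended 192 bp beyond the overlap on the side of Dtx3l and 331 bp beyond it on the side of Parp9. Its midpoint was 209.5 bp from the high-coordinate end of Dtx3l and 347.5 bp from the low-coordinate end of Parp9, inside both genes. The summit, at 35938976, was 51 bp inside the Dtx3l start and 506 bp inside the low-coordinate end of Parp9, so nearer to the former. The promoter table used here gave no strand for Parp9. A promoter shared with Dtx3l, as named above, would make that low-coordinate end the Parp9 start. The peak belongs to both genes by position and counts as 1 site. Peaks that covered the ends of 2 protein-coding genes were few, 3 of 380 in replicate 1 and 3 of 238 in replicate 2. In replicate 1 the other 2 were at Tbk1 and Xpot (43) and at Psmb9 and Tap1 (41), close in score to the site of Dtx3l and Parp9. Those sites overlapped replicate 2 peaks (scores 20 and 19), and the site of Dtx3l and Parp9 did not. Among the 88 gene-end peaks of replicate 1 this site was tied at rank 14 with 1 other.

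The letters next to that summit formed a weaker match than at Parp12. The last 10 bases of the Dtx3l window printed above (35938978 to 35938987, 40 to 49 bp inside the gene) match the IRF motif with 1 mismatch, 2 bp from the summit. The shorter form AANNGAAA is part of the same stretch. These looser forms are common, in 35.4% and 23.9% of all windows, and the window ends at the match, so the letters that follow were not read.

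**Figure D3:**
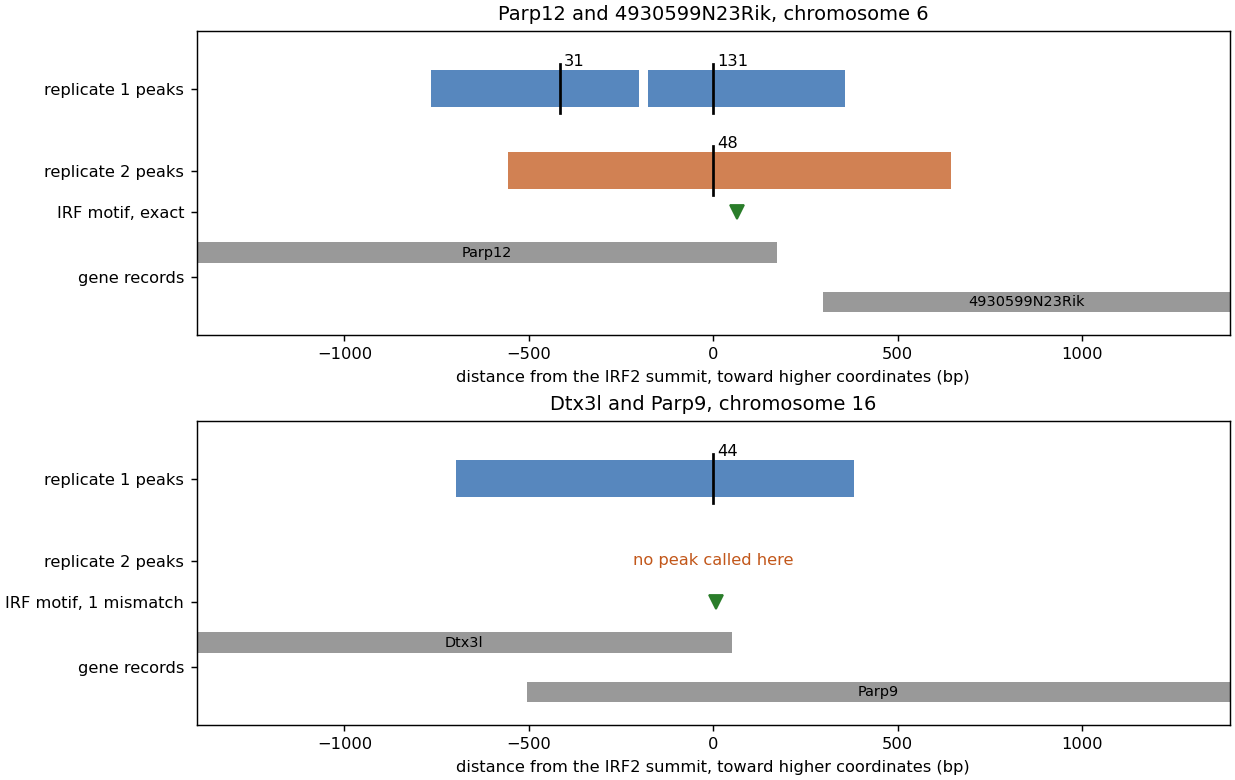
IRF2 peaks at Parp12 (top) and at Dtx3l and Parp9 (bottom), against distance from the summit in bp (x axis). Bars are peaks with the summit as a black line and its score beside it, grey bars are gene records and the triangle is the motif match, 60 bp from the summit at Parp12 and 2 bp from it at Dtx3l. Replicate 2 has no peak in the lower panel.

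Replicate 2 had no peak at Dtx3l or Parp9. Its nearest peak on chromosome 16 (32878133 to 32878730, score 17) lay 3.05 Mb from Dtx3l and 3.06 Mb from Parp9. The depth of both libraries is unknown, so absence from a list means that no call was made, and signal below the calling threshold cannot be read from these files. Replicate 1 peaks with a similar score were found in replicate 2 in part. The 27 replicate 1 peaks with scores from 39 to 49 include the site of Dtx3l and Parp9 itself. Of the 27, 10 overlapped a replicate 2 peak (37.04%, 95% Wilson interval 21.5 to 55.8, counting error only). Of the 10 peaks in this score range at gene ends, 6 did so (60%, 31.3 to 83.2, also counting error only). The site of Dtx3l and Parp9 was thus 1 of 4 gene-end peaks of that height with no counterpart.

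Parp14 had no peak near either end. The nearest replicate 1 peak, 67.3 kb away, was the peak of Dtx3l and Parp9 itself, on the far side of Dtx3l. In replicate 2 the nearest peak was 2.95 Mb away. The protein-coding genes next to the 4 were also without a peak within 5000 bp. Hspbap1, beside Parp14, was 110.4 kb from the nearest replicate 1 peak, and Kpna1, beyond Parp9, was 44.5 kb from it. In both cases that was the peak of Dtx3l and Parp9. Tbxas1 and Kdm7a, on either side of Parp12, were 33.1 and 18.4 kb from the nearest replicate 1 peak, which was a Parp12 call.

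Counted with a window of 5000 bp around either end, 3 of the 4 genes had a replicate 1 peak, against 0.795% of all protein-coding genes. In replicate 2, 1 of 4 had one, against 0.804%. A region found in both lists lay at 1 of 4, Parp12, against 0.164%. These shares of all genes are given as background, and the counts support nothing because the genes were chosen with the peaks known. The 3 genes with a replicate 1 peak represent 2 separate sites.

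Most genes related to the 4 by family or pathway had no peak within 5000 bp, as was the case for protein-coding genes in general. Of 13 other members of the PARP family, 1 had such a peak in replicate 1 and 1 in replicate 2, and 0 had a region of both lists. Over all protein-coding genes these shares were 0.795%, 0.804% and 0.164%. Zc3hav1, an antiviral RNA-binding relative without catalytic activity, had a replicate 1 peak 1245.5 bp inside its high-coordinate end on chromosome 6 (38353639 to 38354575, score 32, ranks 98 to 105). In replicate 2 its nearest peak was the Parp12 peak, 762.9 kb away. Parp8, a mono-ADP-ribosyltransferase, had a replicate 2 peak 726 bp inside its high-coordinate end on chromosome 13 (117025014 to 117025573, score 13, tied at ranks 137 to 186), and its nearest replicate 1 peak lay 9.30 Mb away. The Zc3hav1 score was above the median of its list and the Parp8 score below it. The remaining 11 members, among them the DNA repair enzyme Parp1, the tankyrases Tnks and Tnks2, the interferon-inducible Parp10 and Parp11, and the dioxin-inducible Tiparp, had none in either list. Their nearest peaks lay 706 kb (Parp10), 201 kb (Parp11) and 2.17 Mb (Tiparp) away in replicate 1 and 2.74 Mb, 868 kb and 7.68 Mb away in replicate 2.

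Of 4 other Deltex genes and 11 genes for ADP-ribose hydrolases and macrodomain proteins, 0 had a peak within 5000 bp in either list. The nearest distance in these lists was 339 kb for a Deltex gene and 214 kb for a macrodomain or hydrolase gene, both in replicate 2. Together, 2 of the 28 genes of these lists had a peak in at least 1 library, against 1.43% of all protein-coding genes, and those 2 were Zc3hav1 and Parp8. The median distance to the nearest replicate 1 peak was 2.17 Mb for the other PARP genes, against 2.36 Mb for all protein-coding genes. In replicate 2 it was 2.74 Mb, against 3.11 Mb for the 21631 protein-coding genes on chromosomes with a replicate 2 peak.

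**Figure D4:**
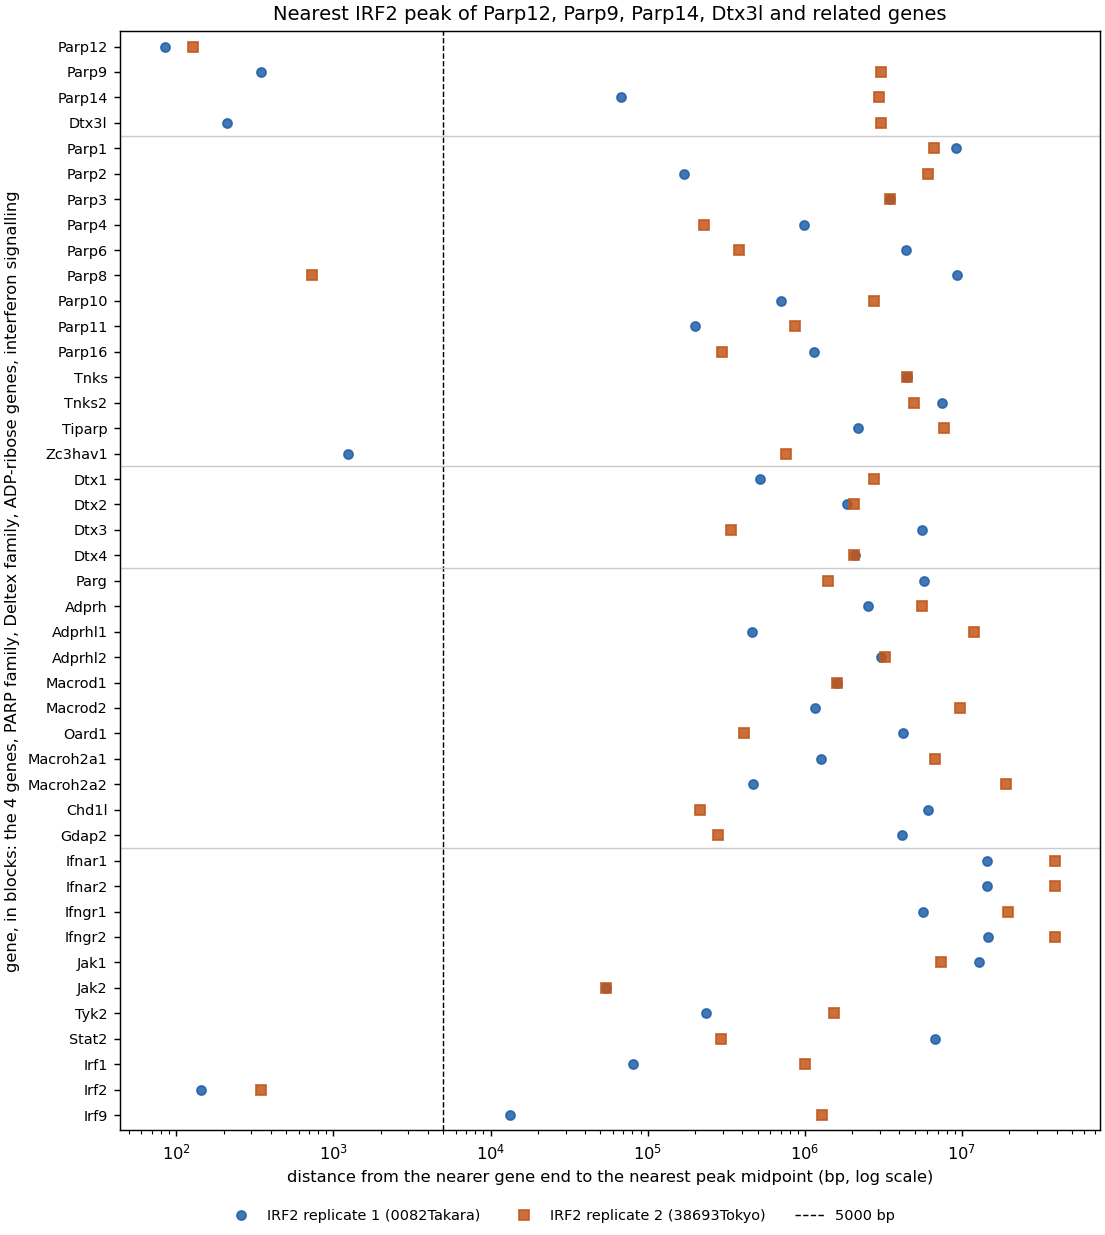
Distance from the nearer gene end to the nearest peak midpoint (x axis, bp, log scale) for the 4 genes and for the related gene lists (y axis), with circles for replicate 1 and squares for replicate 2. Left of the dashed line at 5000 bp are Parp12 and Irf2 in both libraries, Parp9, Dtx3l and Zc3hav1 in replicate 1, and Parp8 in replicate 2.

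Among 11 genes of interferon signalling, 1, Irf2, had a peak within 5000 bp, in each library and as a region of both lists. Over all protein-coding genes the shares were 0.795% in replicate 1, 0.804% in replicate 2 and 0.164% for regions of both lists. By these shares most genes have no such peak, so its lack at the other genes listed is not particular to them. Irf2 had peaks 143.5 bp (score 37) and 346.5 bp (score 21) from its low-coordinate end in replicates 1 and 2. Stat2, Irf9, Irf1, the receptor genes Ifnar1, Ifnar2, Ifngr1 and Ifngr2, and the kinase genes Jak1, Jak2 and Tyk2 had none within 5000 bp in either list. Of these, Irf9 was nearest to a replicate 1 peak (13.3 kb) and Jak2 to a replicate 2 peak (54.1 kb).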

How the data were processed

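IRF2 ChIP-seq was analysed from the authors' deposited peak files, 1 per IRF2 library (2 libraries, 1 group). Fixation was in 1% formaldehyde (15 min), and 30 ug of chromatin went into a precipitation, per the labels' protocols. Per the submitters' processing notes, BWA 0.7.12 and MACS were used with the build mm10. The sources used here do not give thresholds, filters or read depth. The deposited score in the summit track was used as given. Replicate numbers are those of this report, and the title of the Tokyo library, replicate 2 here, labels it rep1. The replicate 2 file also held a copy of all 380 replicate 1 summits under the name rep2, counted once, and 562 merged regions, not used.

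Gene spans came from RefSeq GRCm38.p6 and strands from its promoter table, where a gene is listed. Distances run from a peak midpoint to the nearer gene end. Motifs were searched on both strands. Peak starts were converted to 1-based. Summits and midpoints were kept on the deposited scale, so distances from them can be off by up to 1 bp. Of the related genes, 39 matched the table and are used, and 1 more item that the naming rule selects is not reported here. Python 3.11.15 with pandas 2.3.3 and scipy 1.17.1 was used, and the counting was tested on simulated data. The genes, the lists and the settings were chosen with earlier results of these data known. Named genes are the 4 genes, related genes with a peak, interferon signalling genes, neighbours in position and rank, and the 5 gene-end regions nearest in rank to Parp12. No test across samples was run. Alternatives were other windows, summits for midpoints, gene starts, the higher-scored 50% of peaks, other overlaps, each library alone and other motif forms.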

Additional observations from a re-analysis of the deposited data

How the results depend on the processing

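The number of the 4 genes with a peak was 3 in replicate 1 and 1 in replicate 2 with windows of 1000 and 25000 bp, with the higher-scored 50% of each list and with summits in place of midpoints. With gene starts alone, known for Parp12 and Dtx3l, it was 2 and 1. The number at a region of both lists was 1, and 0 with a reciprocal overlap of 50%, since the higher replicate 1 call covers 44.4% of the wider replicate 2 call at Parp12. With either library left out it ranged from 1 to 3. Related PARP and ADP-ribose genes with a peak numbered 2, and 1 at a window of 1000 bp or without either library. Of the 2 genes with a promoter window, Parp12 and Dtx3l, 0 had the IRF motif in it, against 1 (Dtx3l) with AANNGAAA and 1 (Dtx3l) with 1 mismatch allowed. GAAACT, chosen after seeing the data, was in the windows of 2, Parp12 and Dtx3l, and in 15.8% of all windows. Measured from the summit, the Parp12 distance was 173 bp in both libraries in place of 84.5 and 128.5 bp. No paired analysis was possible because the input controls have no peak list, which leaves the IRF2 libraries as the only group. What depth limits cannot be stated without read counts.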

Other observations

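The share of promoter windows with an exact match to the IRF motif (GAAA, any 2 letters, GAAA) differed between the lists. It was 23 of 73 (31.5%, 95% Wilson interval 22.0 to 42.9) among windows that overlap a replicate 1 peak and 10 of 86 (11.6%, 6.44 to 20.1) among those that overlap a replicate 2 peak. In windows that overlap a region of both lists, such as that of 4930599N23Rik beside Parp12, it was 9 of 26 (34.6%, 19.4 to 53.8). Windows at regions of both lists are also part of the counts by list, so the shares are not independent. In the 32717 windows without a peak it was 3.38%. These counts were made after the match beside Parp12 was seen, several windows can belong to 1 gene, and no test between the libraries was made.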
